A study of Arabidopsis thaliana with 12 samples.

Results

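Transcript levels of 4 genes of photosynthetic carbon metabolism were compared between the flu mutant and wild type (WT) of Arabidopsis thaliana. PRK (AT1G32060) and SBPASE (AT3G55800) belong to the Calvin cycle, AT5G58330 to the malate valve and ATSPS4F (AT4G10120) to sucrose synthesis. They were chosen by name, with earlier results of these data known. Each is measured by 1 probe that the platform annotation assigns to that gene alone. The 4 probes are among 692 such probes, for 691 genes, in a table of 3439 probes. The series holds 6 flu and 6 WT arrays of total RNA. The flu plants are mutants of FLU, a regulator of chlorophyll synthesis. Both groups are of ecotype Landsberg, kept in darkness for 12 h and harvested after 30 min of renewed light. The sources used here give neither the organ nor the age of the plants nor the flu allele. All arrays are from that single time, so "rose" and "fell" compare flu with WT and describe no course over time.

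In the Calvin cycle, PRK makes the acceptor of CO2, ribulose 1,5-bisphosphate, and SBPASE removes a phosphate from sedoheptulose bisphosphate in the branch that regenerates this acceptor. AT5G58330 encodes the plastid NADP-dependent malate dehydrogenase, which reduces oxaloacetate to malate with NADPH, so that surplus reducing power can leave the plastid as malate. These 3 plastid enzymes are switched on in the light when thioredoxin reduces pairs of their cysteines. ATSPS4F encodes a sucrose phosphate synthase, which joins UDP-glucose and fructose 6-phosphate in the cytosol. In a flu plant, protochlorophyllide accumulates in the dark and releases singlet oxygen inside the plastid when light returns. Activation of the enzymes by thioredoxin acts on the protein, and the arrays measure RNA only.

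The values are intensities on a linear scale, quantile normalised here, with values under the 25th percentile (0.250) raised to that floor before log2 was taken. In both groups each array was most like one neighbour in number (1 with 2, 3 with 4, 5 with 6; r = 0.947 to 0.980 over probes), so each such pair was averaged and counted as 1 replicate, which left 3 pair means per group. Nothing in the labels says that arrays came from separate plants, so p-values measure the spread between these pair means, which may be technical. WT arrays 1 and 2 stood apart: they correlated at 0.842 to 0.865 with the other WT arrays, which correlated among themselves at 0.903 or more. The difference of each gene and each ratio between genes is therefore also given without them. No tested probe of FLU itself is at hand (0 probes carry its name alone), and 0 of 6 marker loci of guard cells, root, phloem and epidermis have a probe of their own, so the labels could not be checked on these transcripts. A lower share of green cells and less RNA per cell cannot be told apart in such bulk samples.

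Of the 4 genes, the malate dehydrogenase gene AT5G58330 rose in flu, by 2.64-fold, and the other 3 did not pass the test, fitted on group only. PRK and ATSPS4F had lower mean levels in flu, with folds of 0.602 and 0.686 relative to WT, and SBPASE had a mean level 1.23-fold that of WT. The test was limma's moderated test over all 3128 tested probes, two-sided, with Benjamini-Hochberg adjustment and a threshold of 0.05. It called 38.9% of all tested probes in either direction (17.5% higher, 21.4% lower), so 1 gene in 4 is no more than the background share. With the pair number as a replicate block PRK passed too, in a fit that called 43.8% of all probes. The median log2 difference of the 4 genes was -0.12, against -0.04 for the 620 genes with a tested probe of their own.

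**Figure D1:**
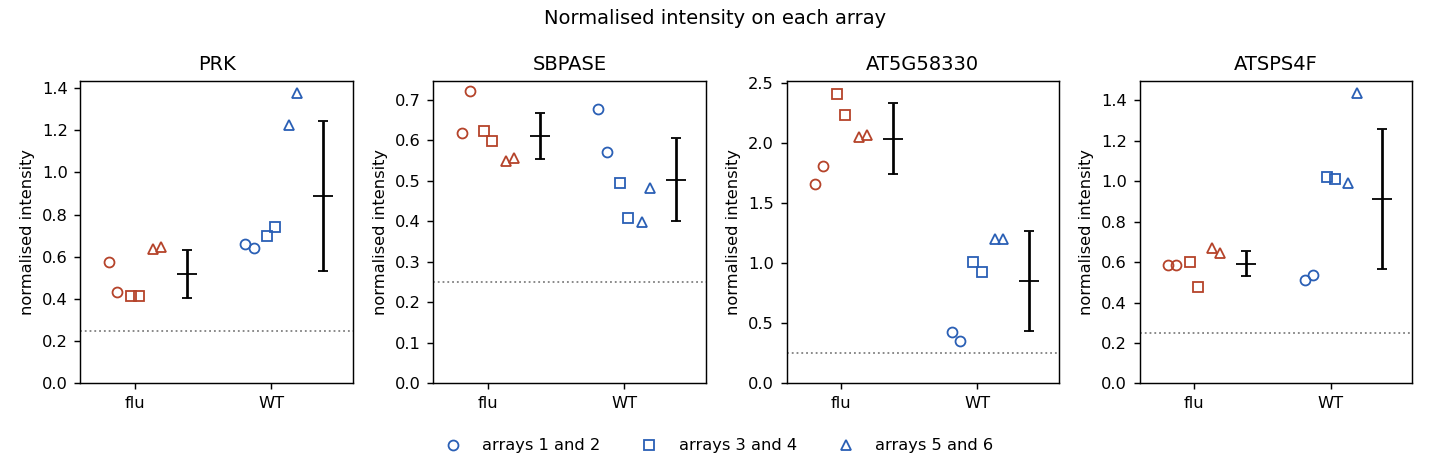
Normalised intensity (linear scale) of PRK, SBPASE, AT5G58330 and ATSPS4F on each array of flu (left in each panel) and WT (right). Open symbols are single arrays, with a shape for each pair of arrays, black bars are the mean and SD of the 3 pair means, and the dotted line is the floor at 0.250. AT5G58330 lies at 1.66 or more on all flu arrays and at 1.20 or less on all WT arrays, and for this gene and ATSPS4F WT arrays 1 and 2 lie below the other 4 WT arrays.

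AT5G58330 had intensities from 1.66 to 2.41 on the flu arrays, with a median of 2.06, against 0.353 to 1.20 on the WT arrays, with a median of 0.970. Every flu array lay above every WT array, as it did in the deposited values (1.67 to 2.29 in flu, 0.368 to 1.26 in WT). Over all tested probes, 50.5% had pair means of the groups without overlap, and the share by single arrays was not computed. The pair means were 1.73, 2.32 and 2.06 in flu and 0.388, 0.969 and 1.20 in WT, so the WT pair means spread 3.10-fold and the flu ones 1.34-fold. As means these were 2.04 ± 0.293 in flu, against 0.853 ± 0.419 in WT (SD, n = 3 pair means each). The log2 difference was 1.40 (SE 0.42, limma adjusted p = 0.042), with a 95% interval from 0.37 to 2.43. Without WT arrays 1 and 2, which held the lowest values, it was 0.91 and still passed (limma adjusted p = 0.022). The differences of same-numbered pair means were 2.16, 1.26 and 0.78. Omitting any 1 flu pair, or WT arrays 3 and 4, ended the call: the limma adjusted p then lay between 0.059 and 0.135 and the log2 difference between 1.30 and 1.57.

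PRK had intensities from 0.412 to 0.644 on the flu arrays, with a median of 0.505, against 0.641 to 1.38 on the WT arrays, with a median of 0.720. The highest flu array and the lowest WT array thus overlapped slightly. The pair means, 0.500, 0.413 and 0.641 in flu and 0.650, 0.720 and 1.30 in WT, did not overlap. Pair means of the groups did not overlap for 50.5% of all tested probes. PRK averaged 0.518 ± 0.115 in flu, against 0.889 ± 0.355 in WT (SD, n = 3 pair means each), and the upper WT value came from arrays 5 and 6. The log2 difference was -0.73 (SE 0.30, limma adjusted p = 0.109), with a 95% interval from -1.47 to 0.01. Without WT arrays 5 and 6 it was -0.42 (limma adjusted p = 0.202), and without WT arrays 1 and 2 it was -0.92 (0.104). With the pair number as a replicate block PRK passed (SE 0.17, limma adjusted p = 0.021), in a fit that called 43.8% of all probes. It also passed with the 12 arrays taken as separate (limma adjusted p = 0.012), where 55.4% of all probes did. The differences of same-numbered pair means were -0.38, -0.80 and -1.02.

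SBPASE, the other Calvin cycle gene, had the narrowest spread of the 4, with pair means that differed by at most 1.21-fold in flu and 1.42-fold in WT. Its intensities ran from 0.550 to 0.722 on the flu arrays, with a median of 0.608, and from 0.397 to 0.676 on the WT arrays, with a median of 0.488. The groups overlapped through WT arrays 1 and 2, whose pair mean of 0.621 lay inside the flu range of 0.552 to 0.668, while the other WT pair means were 0.450 and 0.437. SBPASE averaged 0.610 ± 0.058 in flu, against 0.503 ± 0.103 in WT (SD, n = 3 pair means each). The log2 difference was 0.29 (SE 0.17, limma adjusted p = 0.227), with a 95% interval from -0.12 to 0.71, and the differences of same-numbered pair means were 0.10, 0.44 and 0.34. Without WT arrays 1 and 2 it was 0.46 and passed (SE 0.11, limma adjusted p = 0.034).

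ATSPS4F, the cytosolic enzyme of the set, had intensities from 0.475 to 0.672 on the flu arrays, with a median of 0.594, against 0.514 to 1.44 on the WT arrays, with a median of 1.003. The overlap again came from WT arrays 1 and 2 alone. Their pair mean was 0.525, below the flu pair means of 0.586 and 0.657 and next to the third at 0.534, whereas the other WT pair means were 1.02 and 1.19. ATSPS4F averaged 0.592 ± 0.062 in flu, against 0.912 ± 0.347 in WT (SD, n = 3 pair means each). The log2 difference was -0.54 (SE 0.31, limma adjusted p = 0.221), with a 95% interval from -1.31 to 0.22. Without WT arrays 1 and 2 it was -0.90 and passed (SE 0.13, limma adjusted p = 0.012). By pair number the differences were 0.16, -0.93 and -0.86.

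Without WT arrays 1 and 2, then, 3 of the 4 genes passed, AT5G58330 and SBPASE higher and ATSPS4F lower in flu, where the same fit called 36.3% of all probes. This fit has 2 WT pair means and keeps flu arrays 1 and 2. Yet the pair means of arrays 1 and 2 deviated together in flu and WT (r = 0.46 over probes). In that fit PRK had the largest absolute log2 difference of the 4 and did not pass, with an SE of 0.34. Leaving out these arrays moved the log2 differences of SBPASE and ATSPS4F by over 1.5 times and likewise that of AT5G58330, which became smaller. With any other single pair left out, neither SBPASE nor ATSPS4F passed (limma adjusted p from 0.248 to 0.505).

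Log2 differences in this series depend on the number of a probe in the table. All 4 genes stand where neighbouring probes were shifted, as many other probes do, by as much or more. The share of all probes so placed was not computed. Probes within 3 positions of each gene's, counted modulo a fixed period of the numbering, had mean log2 differences of -0.29 for PRK, -0.34 for SBPASE, 0.25 for AT5G58330 and -0.32 for ATSPS4F. With these local means subtracted, SBPASE stood at 0.64 and passed (limma adjusted p = 0.032), and AT5G58330 stood at 1.15 and did not (0.080). PRK and ATSPS4F then stood at -0.44 and -0.22 (limma adjusted p = 0.305 and 0.617). That fit called 34.7% of all probes, and SBPASE was the 1 of the 4 genes among them. With the replicate block added to it, both SBPASE and AT5G58330 passed (limma adjusted p = 0.021 and 0.032), where 39% of all probes did. With the local median of neighbouring probe numbers subtracted in place of these means, and no block, SBPASE stood at 0.54 and did not pass (limma adjusted p = 0.054). The sign of each of the 4 differences was the same in all 20 alternative settings, and the call of each gene differed in some.

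**Figure D2:**
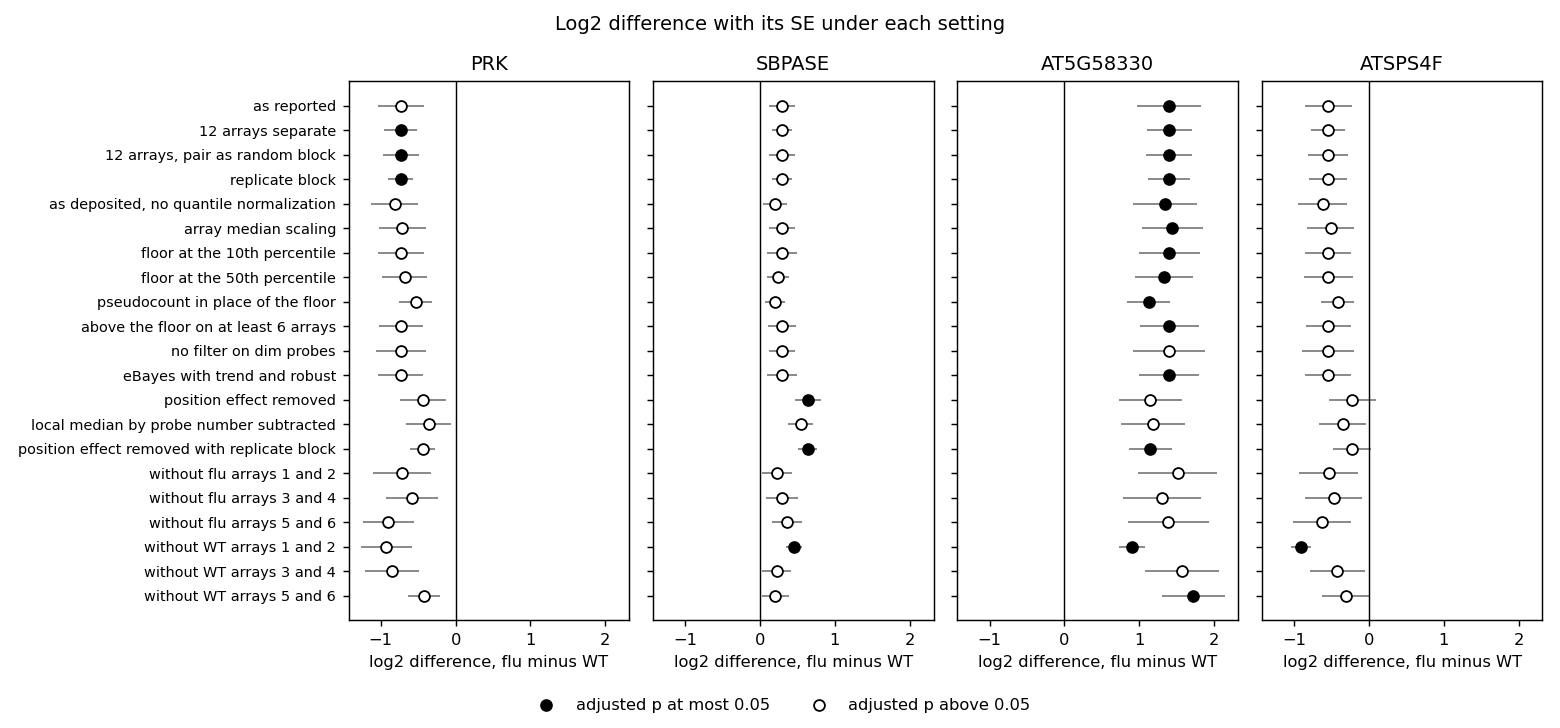
Log2 difference (flu minus WT, x axis) of each gene under the reported setting and the 20 alternatives, listed down the page. Points are estimates, bars are 1 SE, and filled points have a limma adjusted p of 0.05 or less. PRK and ATSPS4F stay below 0 and SBPASE and AT5G58330 above 0 in all of them, and filled points number 3 of 20 alternatives for PRK, 3 for SBPASE, 13 for AT5G58330 and 1 for ATSPS4F.

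Whether the genes moved unequally was asked with the log2 ratio of one gene to another within each pair mean, for all 6 pairs of genes. With 3 pair means per group the exact two-sided permutation test cannot give a p under 0.1, so no pair could pass at 0.05. The ratio of AT5G58330 to ATSPS4F was 1.94 higher in flu than in WT on the log2 scale, with pair values from 1.57 to 2.12 in flu and from -0.44 to 0.01 in WT, which do not overlap (exact permutation p = 0.1, adjusted over the 6 pairs 0.3). It was 1.81 higher without WT arrays 1 and 2. The ratio of AT5G58330 to PRK was 2.13 higher in flu, with values from 1.68 to 2.49 in flu and from -0.74 to 0.43 in WT (exact permutation p = 0.1, adjusted 0.3), and 1.83 higher without WT arrays 1 and 2. With all arrays, these were the 2 of the 6 ratios without overlap, one against the cytosolic enzyme and one against a plastid enzyme. Both contain AT5G58330, so they are not separate results. The share of other gene pairs without overlap was not computed. Against SBPASE, AT5G58330 was 1.10 higher in flu, and there the groups overlapped (exact permutation p = 0.2, adjusted 0.3). That ratio rested on single pairs of WT arrays: it was 0.45 higher without arrays 1 and 2, with overlap (exact permutation p = 0.3), and 1.52 higher without arrays 5 and 6 (0.1). The differences of same-numbered pair means were 2.06, 0.82 and 0.44.

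The log2 differences of the 3 plastid enzymes, -0.73, 0.29 and 1.40, lay on both sides of that of the cytosolic one, -0.54. SBPASE over PRK, both of the Calvin cycle, was 1.03 higher in flu on the log2 scale, with overlapping groups (exact permutation p = 0.2, adjusted 0.3), and by pair number it was 0.48, 1.24 and 1.35 higher. SBPASE over ATSPS4F was 0.84 higher (exact permutation p = 0.4, adjusted 0.48), with differences by pair number of -0.05, 1.37 and 1.20. These ratios were 1.38 and 1.36 higher in flu without WT arrays 1 and 2, and the groups then did not overlap in either (exact permutation p = 0.1 for both, adjusted 0.15). Without WT arrays 5 and 6 they were 0.63 and 0.51 higher. How often other gene pairs lack overlap was not computed here either. PRK over ATSPS4F differed by -0.19, less than the pooled SD of 0.32 between pair means (exact permutation p = 0.5, adjusted 0.5), and by -0.02 without WT arrays 1 and 2 (0.9). A p of this size does not show that PRK and ATSPS4F moved alike.

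**Figure D3:**
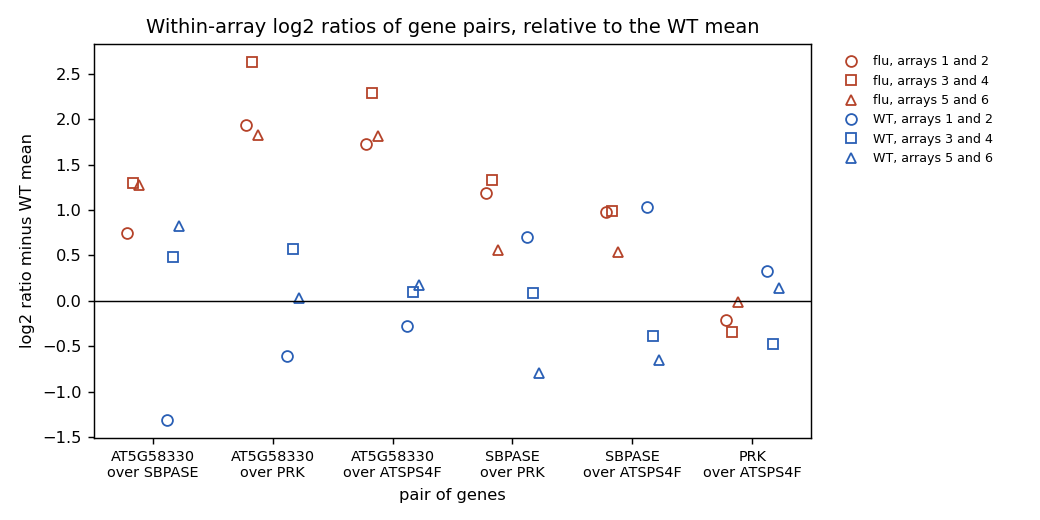
Log2 ratio of one gene to another within each pair mean, minus the WT mean of that ratio (y axis), for the 6 pairs of genes; red symbols are flu, blue symbols WT, with a shape for each pair of arrays. The flu and WT values do not overlap for AT5G58330 over PRK and AT5G58330 over ATSPS4F, and they overlap for the other 4 pairs. The share of other gene pairs without overlap was not computed.

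The wider pathways are thinly covered by probes of a single gene. Of 87 loci listed for the Calvin cycle, malate valve, thioredoxin system, sucrose synthesis, starch and photorespiration, 6 have such a probe. These are 2 of 25 Calvin cycle loci, 1 of 11 malate valve loci and 1 of 17 sucrose synthesis loci, which are the 4 genes above, and 2 of 10 thioredoxin system loci. The starch list of 13 loci and the photorespiration list of 11 have 0, and their genes are not analysed here. Of the 6 genes 1 rose, 2 fell and 3 did not pass, with a median log2 difference of -0.64, against -0.04 over the 620 genes, of which 105 rose and 123 fell.

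Both thioredoxin system genes fell in flu, where 21.4% of all tested probes fell. AT2G04700 is known as the catalytic subunit of ferredoxin-thioredoxin reductase, which hands electrons from photosystem I to the thioredoxins that activate PRK, SBPASE and the malate dehydrogenase. NTRC is a plastid thioredoxin reductase with its own thioredoxin domain that takes its electrons from NADPH. AT2G04700 was above the floor on 1 of 6 flu arrays, at 0.258, and on all 6 WT arrays, at 0.423 to 0.856 with a median of 0.581. As deposited, its values were 0.174 to 0.227 on the flu arrays and 0.467 to 0.851 on the WT arrays. These do not overlap, as pair means did not for 50.5% of all tested probes. The log2 difference was -1.22 (SE 0.23) at a limma adjusted p of 0.0081, and its size depends on the floor: with the floor at the 10th percentile it was -1.32, and at the 50th, where it did not pass, -0.40 (0.225). Without WT arrays 1 and 2 it was -0.99 (limma adjusted p = 0.011).

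NTRC had intensities from 0.322 to 0.470 on the flu arrays, with a median of 0.421, against 0.521 to 0.829 on the WT arrays, with a median of 0.724. All flu arrays lay below all WT arrays, and pair means of the groups did not overlap for 50.5% of all tested probes. NTRC differed by -0.73 on the log2 scale (SE 0.19, limma adjusted p = 0.024), and by -0.91 without WT arrays 1 and 2 (0.0081). Probes within 3 positions of NTRC's, counted modulo the same fixed period of the numbering, had a mean log2 difference of -0.47. With this effect of probe number removed NTRC stood at -0.25 and did not pass (limma adjusted p = 0.327), while AT2G04700 stood at -1.08 and passed (0.016). With a local median by probe number subtracted, neither passed, at -0.56 and -0.69 (limma adjusted p = 0.061 for both). NTRC also did not pass without any 1 of the flu pairs, WT arrays 3 and 4 or WT arrays 5 and 6 (limma adjusted p from 0.058 to 0.090).

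**Figure D4:**
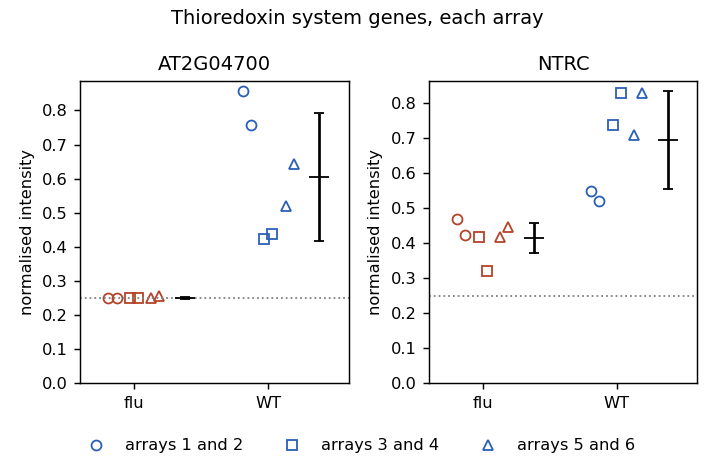
Normalised intensity (linear scale) of AT2G04700 and NTRC on each array of flu (left in each panel) and WT (right), with symbols by pair of arrays, mean and SD of the 3 pair means in black and the floor at 0.250 as a dotted line. The flu arrays of AT2G04700 lie at or next to the floor, and for both genes all flu arrays lie below all WT arrays. Pair means of the groups do not overlap for 50.5% of all tested probes.

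**Figure D5:**
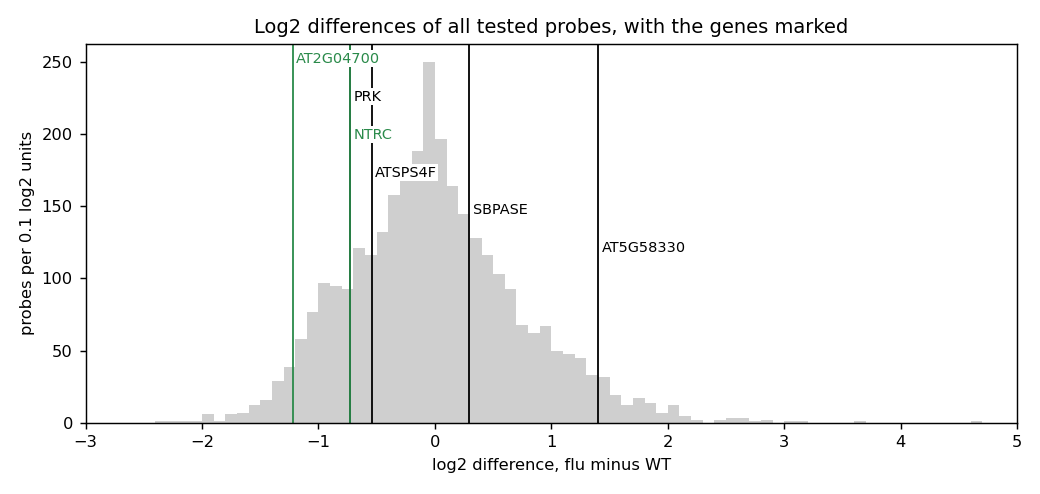
Histogram of the log2 differences (flu minus WT, x axis) of all 3128 tested probes in steps of 0.1, with vertical lines for PRK, SBPASE, AT5G58330 and ATSPS4F (black) and for AT2G04700 and NTRC (green, the NTRC line covering that of PRK). AT5G58330 lies at the 95.7th percentile and AT2G04700, whose rank rests on the floor, at the 3.48th, and the others lie inside the bulk of the distribution.

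Set against all tested probes, AT5G58330 lay at the 95.7th percentile of log2 differences and SBPASE at the 69.5th. ATSPS4F lay at the 23.4th percentile, PRK at the 16.3rd, NTRC at the 16.4th and AT2G04700 at the 3.48th, a rank that rests on the floor because 5 of its 6 flu values are floored. Levels of different probes are not comparable on these arrays, so no order of the genes by abundance is given.

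Genes with the most similar profile were taken from 308 other genes above the floor on all arrays, by the root mean square difference of centred log2 values over the 6 pair means. For AT5G58330 these were AT4G17070 (0.20), AT1G74070 (0.23) and AT3G18870 (0.28), against a median of 0.96 over the 308. Their log2 differences were 1.52, 1.37 and 1.40. The choice used these same pair means, so a difference between the groups and a low WT pair mean in arrays 1 and 2, which all 3 share with AT5G58330, follow from it and are a description only. For SBPASE they were AT1G02260 (0.074), AT2G46300 (0.11) and AT4G08940 (0.13), against a median of 0.46.

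For ATSPS4F the nearest genes were AT4G13680 (0.17), AT3G21810 (0.17) and AT5G40050 (0.22), against a median of 0.55. For PRK they were AT2G25870 (0.26), AT1G28150 (0.28) and ATSPS4F (0.28), against a median of 0.56. AT2G25870 has a second, dimmer probe with a log2 difference of the other sign, 0.75 against -0.57 for the brighter, so its likeness to PRK holds for 1 of its probes only.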

How the data were processed

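The authors deposited a table of linear intensities, 3439 probes by 12 arrays. The sources used here do not state the scanner, background correction, scaling or genome build. Values run from 0 to 100, array sums from 3247 to 3350 and array medians from 0.426 to 0.442 in flu and 0.443 to 0.491 in WT, a difference that quantile normalisation removes. The number of arrays limits the precision.

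Here the intensities were quantile normalised and floored at the 25th percentile (0.250), and 311 probes that never exceeded the floor were left untested. Log2 values were averaged within pairs of arrays and fitted on group with limma 3.58.1 in R 4.3.3. Deviations from the group mean correlated at 0.21 to 0.68 within these pairs and at most -0.04 between others. Such deviations cancel within a group, which by itself pushes the correlations between others down, and the pairs were chosen from these same data. Pair means of the same number deviated together in flu and WT (r = 0.46, 0.38 and 0.26 over probes), so the numbers may pair the samples. No label states this pairing, and the reported fit is on group only. A fit with the pair number as a replicate block is given beside it. The fit was tested on simulated data. The values simulated for it held no shared deviation by pair number and no effect of probe number, so neither is covered.

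Probes were named through the platform annotation (692 with 1 gene, 870 with several, 1877 not listed) and the TAIR10.1 gene table, which matched 690. Text names the 4 genes, listed pathway loci with a probe of their own and the 3 nearest profiles per gene. Where a gene had several probes, the brighter was used. The members, lists and tests were chosen with earlier results of these data known, and alternatives for AT2G04700 and NTRC were added after seeing the data.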

Additional observations from a re-analysis of the deposited data

Results flagged for a closer look

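Of 12 sets of 6 arrays (6 genes in each group), 2 held an array far from the others. Chance gives about 1 in 20 for independent values. That rate does not hold for arrays alike in pairs or for floored values, so no comparison with it is drawn. NTRC on flu array 4 stood at an intensity of 0.322, below the other 5 flu arrays. AT2G04700 on flu array 6 stood at 0.258, just above the floor of 0.250 that holds the other 5 flu arrays, so the gap there is one between a measured value and floored ones.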

How the results depend on the processing

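All 4 genes, AT2G04700 and NTRC kept their sign in all 20 alternatives, and the count of probes past the threshold, 1216, ran from 840 to 1732. The split of 547 higher and 669 lower was 482 and 825 with the values as deposited, and 546 and 526 after subtraction of local medians by probe number. PRK, at -0.73, passed with the 12 arrays taken as separate, with the pair of arrays as a random block and with the replicate block, with the same value of -0.73 in each (limma adjusted p = 0.012, 0.026 and 0.021). SBPASE passed at 0.64 with the probe number effect removed, alone or with the replicate block, did not pass at 0.54 with the local median subtracted (limma adjusted p = 0.054), and ran from 0.20 to 0.46 with 1 pair of arrays left out, passing without WT arrays 1 and 2. AT5G58330 did not pass with no filter on dim probes (1.40), with the probe number effect removed (1.15) or with the local median subtracted (1.18), and ran from 0.91 to 1.72 with 1 pair left out. ATSPS4F ran from -0.90 to -0.31 with 1 pair left out and passed without WT arrays 1 and 2. The ratio of AT5G58330 to ATSPS4F was 1.55 with a pseudocount of 0.250 in place of the floor, against 1.94. With 1 pair left out, AT5G58330 over SBPASE ran from 0.45 to 1.52, SBPASE over ATSPS4F from 0.51 to 1.36 and SBPASE over PRK from 0.63 to 1.38. The cause of these shifts was not tested. In the fit as reported, the replicate block changed the call of PRK and of none of the other 5 genes. With the probe number effect removed it changed that of AT5G58330 (limma adjusted p = 0.032, against 0.080). Signal near the floor limits AT2G04700, and 3 pair means per group limit the exact tests.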
